A study of Homo sapiens with 12 samples.

Results

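Heterogeneous nuclear ribonucleoproteins (hnRNPs) are the abundant RNA-binding proteins that coat newly made transcripts in the nucleus. They bind short sequence elements in introns and exons, repress or promote the use of nearby splice sites, and several of them also act in mRNA export, stability and translation. The family is named by letter, and the letters group into subfamilies with related RNA-binding domains, among which A/B, D and F/H proteins are close relatives of each other within their group. The 10 genes described here, HNRNPA1, HNRNPA2B1, HNRNPC, HNRNPD, HNRNPF, HNRNPH1, HNRNPK, HNRNPL, HNRNPM and HNRNPU, were taken by gene symbol from the 63086 genes of the deposited expression table, as a list of names that used no measured value as a threshold, and all 10 were among the 15987 genes tested.

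RNA was sequenced from 4 lines of MIA PaCa-2, a human pancreatic carcinoma cell line of mesenchymal character, with 3 libraries a line. WT cells were not manipulated. The CRISPR Control line had gone through gene editing but carried only a silent point mutation, and TIMP1 KO 1 and TIMP1 KO 2 were knockout clones made with different guide RNAs to exon 4 of TIMP1, which encodes the secreted protein tissue inhibitor of metalloproteinases-1. WT and CRISPR Control are called competent and both KO lines deficient. Each KO line is a clone, all 4 lines share the MIA PaCa-2 background, and the 3 libraries of a line are biological replicates of that line, so p-values measure the spread between libraries of a line and not between independently made knockouts.

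TIMP1 itself checked the labels. It had normalised counts of 3837, 3290 and 3532 in WT, 2285, 2826 and 2959 in CRISPR Control, 1562, 1624 and 1613 in KO 1 and 1136, 1192 and 1155 in KO 2. All deficient libraries lay below the competent ones, although RNA was still present, and CRISPR Control was itself at 75.4% of WT (limma adjusted p = 0.000769). Reads assigned to genes ranged from 26908701 to 36093563 a library, of which the 10 hnRNP genes took 155489 to 237616. CDKN2A was at 0 in all 12 libraries (3 reads a library is the limit that a count of 0 allows). The summed counts of the leukocyte, endothelial and acinar and islet markers reached at most 12.4, 32.3 and 11.8. VIM, KRT8 and KRT18 were high in all 12 libraries, but their levels differed between lines. Relative to WT, KRT8 stood at 30.6% for the CRISPR Control line, with 104% and 74.2% for clones KO 1 and KO 2. With the lines in this order, KRT18 was at 31.1%, 103% and 64.9%, and VIM at 82.5%, 132% and 103%. KRT19 was at 28.9%, 157% and 333%. EPCAM passed against WT only for KO 2, at 68.7% (limma adjusted p = 0.000149). CDH1 was at 1151 to 1487 in competent and 68.6 to 158 in deficient libraries.

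The promoters of the genes that moved most and least are shown first, because the values below turn on these genes. HNRNPL, on chromosome 19 from 38836370 to 38852347 on the minus strand, had the lowest RNA of all members relative to WT in KO 2, and HNRNPC, on chromosome 14 from 21209136 to 21269494 on the minus strand, was the member that passed no test. The stretches below are from RefSeq, on GRCh38.p14, read 5′ to 3′ on the gene's strand, and cover 250 bases before the annotated start of HNRNPL and the outermost 198 of the 250 bases for HNRNPC, since the other 52 lie within the annotated gene. Capitals mark matches to CCAAT, the box bound by NF-Y, and to GGGCGG, the GC box bound by SP1, on either strand.
HNRNPL (chr19:38852348-38852597, minus strand): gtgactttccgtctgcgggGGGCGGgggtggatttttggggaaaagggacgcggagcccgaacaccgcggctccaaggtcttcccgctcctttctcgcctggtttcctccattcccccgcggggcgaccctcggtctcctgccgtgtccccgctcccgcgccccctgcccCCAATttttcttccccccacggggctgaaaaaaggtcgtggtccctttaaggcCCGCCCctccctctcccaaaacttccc
HNRNPC (chr14:21269495-21269692, minus strand): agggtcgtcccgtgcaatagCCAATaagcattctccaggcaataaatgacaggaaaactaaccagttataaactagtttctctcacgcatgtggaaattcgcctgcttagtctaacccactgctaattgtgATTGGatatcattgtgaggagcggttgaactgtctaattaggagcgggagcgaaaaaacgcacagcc
Over whole windows of 250 bases, HNRNPC held 3 CCAAT boxes and 1 GC box. The GC box lies in the bases not printed, and 1 CCAAT box is cut by the end of the printed stretch. HNRNPL held 1 CCAAT box and 2 GC boxes in the window shown, and 3 and 2 in its other window, so both genes had both motifs. The next stretches show the E-box CACGTG, the site of MYC and MAX, in capitals within 30 bases of the HNRNPD and HNRNPM promoter windows. These bases lie before the RefSeq start but within the wider gene spans of GENCODE, and only a short stretch is printed for that reason. They were the only members with a match, and MYC RNA was measured in the same libraries.
HNRNPD (chr4:82374001-82374030, minus strand): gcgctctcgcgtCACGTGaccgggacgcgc
HNRNPM (chr19:8444921-8444950, plus strand): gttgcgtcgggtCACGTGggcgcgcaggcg
The table of promoters held 15 windows for 9 of the 10 members, with no entry for HNRNPA1. CACGTG was in 2 of the 15 windows against 6.34% of 35116 windows of all genes, CCAAT in 8 of 15 against 32%, and GGGCGG in 9 of 15 against 42.6%. The NRF1 core GCATGCGC was in 1 of 15 windows, an HNRNPH1 start, against 2.63%. The ETS core CCGGAAG was in 2 of 15, at HNRNPD and HNRNPF, against 8.52%, and the E2F site TTTCGCGC was in 0 of 15 against 0.439%. Windows of 1 gene can overlap the same promoter region, matches were counted on both strands with overlapping matches of different motifs each counted, and a match in a window is a description of its letters.

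All 10 genes were abundant. By mean normalised count, a read count divided by the library's size factor, they ranked between 48th, HNRNPA2B1, and 704th, HNRNPH1, of the genes tested. Per kilobase of the canonical transcript, WT levels ran from 11104 ± 716 (SD, n = 3) for HNRNPA2B1 down to 2634 ± 72.2 for HNRNPU, with HNRNPL at 9376 ± 246, HNRNPC at 8002 ± 288 and HNRNPK at 7928 ± 175. HNRNPC and HNRNPK did not differ beyond their spread. Divided by the union of all annotated exons instead, the highest level was that of HNRNPF at 5437 per kilobase, so the order between genes depends on the transcript length used. Together the 10 genes made up 0.622% ± 0.019 of the WT reads and 0.672% ± 0.046 of those of CRISPR Control, with 0.574% ± 0.027 for KO 1 and 0.513% ± 0.022 for KO 2 (SD, n = 3).

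hnRNP RNA was lower in the deficient than in the competent lines for 9 of the 10 genes, and HNRNPC did not pass the test. The falls ran from 0.18 on the log2 scale for HNRNPU to 0.50 for HNRNPL, a level of 88.4% to 70.9% of the competent lines, with a median of -0.41 over the 10 members against 0.00 over all genes tested. Of all genes tested, 33% were lower and 32.9% were higher in this comparison (limma on log2(normalised count + 1), adjusted p under 0.05). Of the 1334 genes whose mean reached 5000, a level that all 10 members exceeded, 49.4% were lower. In HNRNPD, HNRNPF, HNRNPH1, HNRNPL and HNRNPM all 6 deficient libraries lay below all 6 competent libraries, which was the case for 12.4% of all genes. In bulk RNA, fewer cells with a high hnRNP level and less hnRNP RNA in every cell cannot be told apart.

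**Figure D1:**
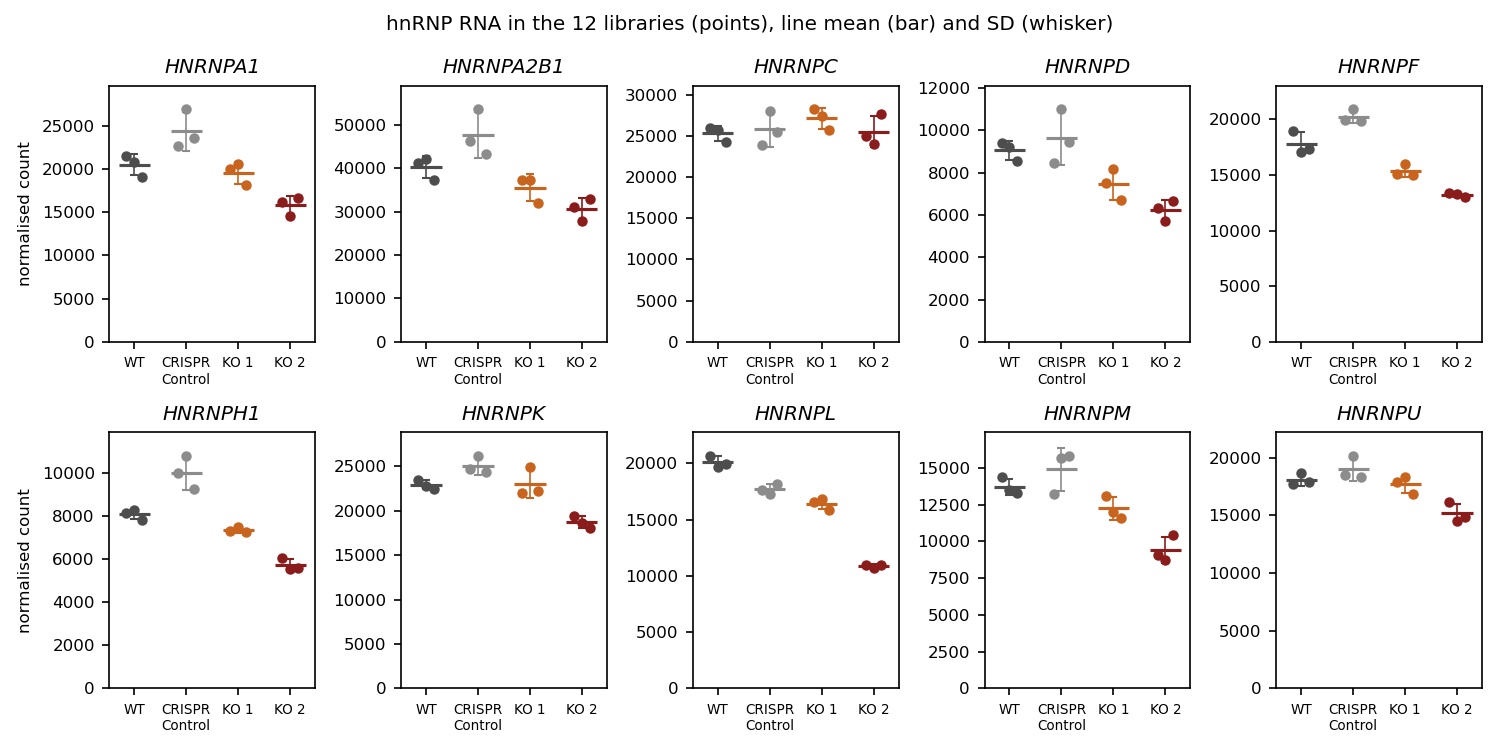
Normalised count (vertical axes, from 0) for each of the 10 hnRNP genes in the 4 lines; points are libraries, bars line means and whiskers SD (n = 3). KO 2 is the lowest line in every panel except HNRNPC, where all 4 lines overlap.

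HNRNPL showed the deepest fall. Its protein binds CA-rich RNA and acts in alternative splicing. It had normalised counts of 20676, 19668 and 19904 in WT, 17622, 17275 and 18174 in CRISPR Control, 16573, 16824 and 15886 in KO 1 and 10921, 10681 and 11007 in KO 2. KO 2 stood far below all other libraries, and KO 1 lay below every competent library. Relative to WT, HNRNPL was at 54.1% in KO 2 (log2 fold change -0.89 ± 0.06 SE, limma adjusted p = 6.94e-10) and at 81.8% in KO 1 (-0.29 ± 0.06, adjusted p = 0.00112). CRISPR Control was also lower than WT, at 88.1% (adjusted p = 0.0176), and KO 1 did not differ from CRISPR Control by the test (-0.11, 95% interval -0.24 to 0.02, adjusted p = 0.138). HNRNPL was the only member with WT as its highest line.

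The A/B proteins HNRNPA1 and HNRNPA2B1 are shuttling splicing repressors that bind exonic and intronic silencers. HNRNPA1 was at 21525, 20872 and 19139 in WT, 22691, 26925 and 23541 in CRISPR Control, 19960, 20534 and 18167 in KO 1 and 16175, 14579 and 16688 in KO 2. CRISPR Control was above and KO 2 below every library of the other lines, while KO 1 overlapped WT. HNRNPA1 fell to 77.1% of WT in KO 2 (log2 fold change -0.38 ± 0.08 SE, limma adjusted p = 0.000716) and stood at 95.3% in KO 1 (adjusted p = 0.547). HNRNPA2B1 was at 41361, 42170 and 37321 in WT, 46312, 53649 and 43274 in CRISPR Control, 37294, 37358 and 31911 in KO 1 and 31200, 27937 and 32945 in KO 2. Its order of lines was that of HNRNPA1, but KO 1 and KO 2 overlapped and did not differ by the test (-0.21, 95% interval -0.41 to -0.02, adjusted p = 0.0831). HNRNPA2B1 fell to 76.1% of WT in KO 2 (adjusted p = 0.00148). The gene overlaps CBX3 and NFE2L3, which are annotated on the opposite strand and had 27.7% and 5.96% of its count. Whether reads were counted by strand is not given in the sources used here, so these values carry that uncertainty. HNRNPA1 has 76 pseudogene copies in the table, which summed to 2.15% of its count, and adding them left each of its calls in place.

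HNRNPF and HNRNPH1 encode the closely related G-tract-binding proteins of the F/H subfamily. HNRNPH1 was at 8122, 8282 and 7802 in WT, 9985, 10778 and 9218 in CRISPR Control, 7270, 7492 and 7258 in KO 1 and 6028, 5533 and 5566 in KO 2. Its 4 lines did not overlap at all. HNRNPH1 had the highest rise of the members in CRISPR Control, to 124% of WT (log2 fold change 0.31 ± 0.07 SE, limma adjusted p = 0.00107), and fell to 70.7% of WT in KO 2 (-0.50 ± 0.07, adjusted p = 6.06e-06). HNRNPF was at 18968, 17064 and 17356 in WT, 19898, 20898 and 19885 in CRISPR Control, 15071, 15935 and 14994 in KO 1 and 13407, 13283 and 12979 in KO 2. Its lines also did not overlap, and each step down the order, CRISPR Control to WT, WT to KO 1 and KO 1 to KO 2, passed the test, with log2 differences of 0.19, 0.21 and 0.21 (adjusted p = 0.0222, 0.015 and 0.0143).

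HNRNPD, also called AUF1, binds AU-rich elements and acts in mRNA decay. Its counts ranged from 8546 to 9382 in WT, 8461 to 10999 in CRISPR Control, 6695 to 8152 in KO 1 and 5728 to 6672 in KO 2. Both KO lines lay below the competent libraries, at 82% and 69% of WT (limma adjusted p = 0.0226 and 8.36e-05). HNRNPM, which promotes or represses exons through GU-rich elements, ranged from 13271 to 14351 in WT, 13214 to 15825 in CRISPR Control, 11615 to 13109 in KO 1 and 8735 to 10436 in KO 2. Its KO 2 libraries stood apart, at 68.6% of WT (adjusted p = 2.3e-05), whereas KO 1 was at 89.4% and did not pass (adjusted p = 0.145).

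HNRNPK and HNRNPU had the shallowest falls. HNRNPK, a poly(C)-binding protein with KH domains, ranged from 22474 to 23459 in WT, 24350 to 26193 in CRISPR Control, 22045 to 24918 in KO 1 and 18087 to 19418 in KO 2. KO 1 enclosed the whole WT range, and only KO 2 stood lower, at 81.7% of WT (limma adjusted p = 0.0015). HNRNPU, also called SAF-A, binds RNA and nuclear scaffold DNA. It ranged from 17711 to 18650 in WT, 18315 to 20179 in CRISPR Control, 16864 to 18327 in KO 1 and 14500 to 16142 in KO 2. KO 2 was again the separate line, at 83.8% of WT (adjusted p = 0.00422). With all libraries scaled to equal totals the HNRNPU value in KO 2 was -0.16 (adjusted p = 0.0558), and under quantile normalization its value between deficient and competent lines was -0.10 (adjusted p = 0.0565), so both calls ended.

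HNRNPC binds uridine tracts and packages nascent transcripts as a tetramer. It was at 25998, 25693 and 24288 in WT, 23855, 28057 and 25443 in CRISPR Control, 28230, 27385 and 25754 in KO 1 and 24982, 23963 and 27609 in KO 2. Its ranges in the 4 lines overlapped, and no step in their order passed the test. Between deficient and competent lines it differed by 0.04 on the log2 scale (95% interval -0.07 to 0.16, limma adjusted p = 0.513), an interval of 95.1% to 111% of the competent level. Under quantile normalization that value was 0.12 (adjusted p = 0.033), KO 2 was above WT (0.17, adjusted p = 0.0456), and the difference of KO 2 from CRISPR Control turned from -0.01 to 0.18 (adjusted p = 0.029). Of all reads of the 10 genes, HNRNPC took 12.9% ± 0.045 for WT and 12% ± 0.35 for CRISPR Control, and 14.9% ± 0.4 for KO 1 and 16.8% ± 0.69 for KO 2 (SD, n = 3). The share of HNRNPL was highest for WT and lowest for KO 2, with 10.3% ± 0.32, 8.28% ± 0.69, 9.04% ± 0.2 and 7.19% ± 0.22 over the same lines.

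**Figure D2:**
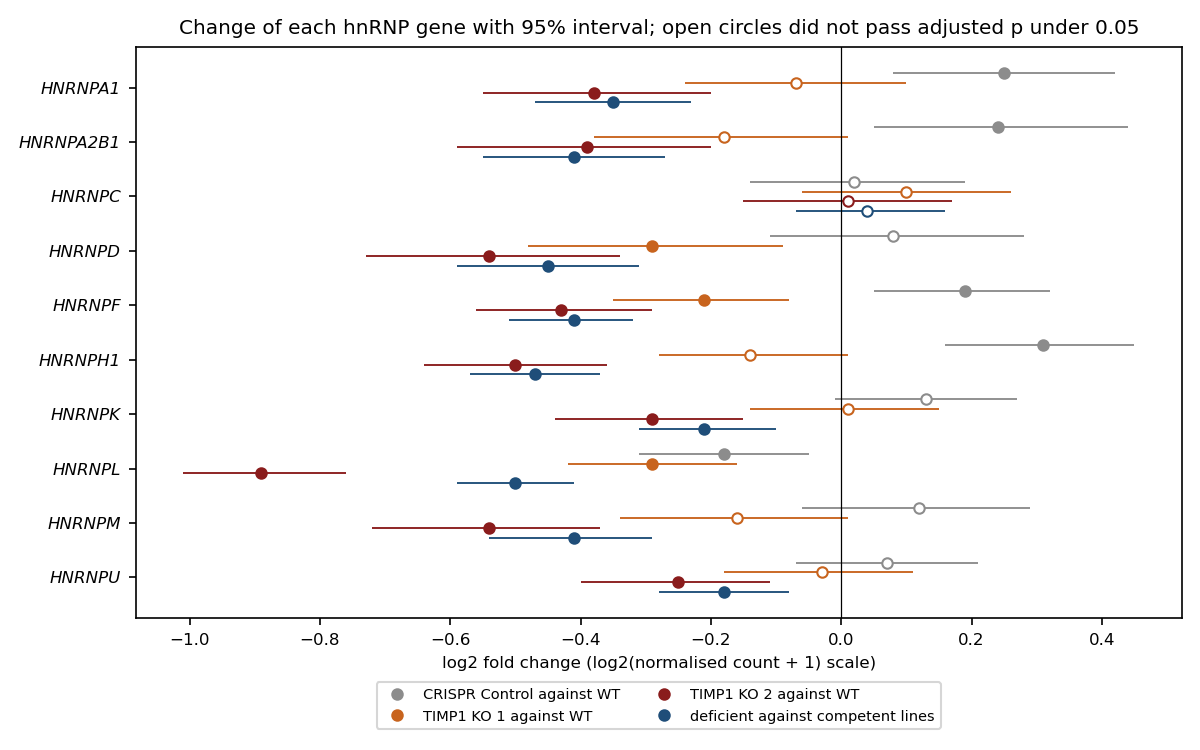
Log2 fold change of each hnRNP gene (horizontal axis, log2(normalised count + 1) scale) with its 95% interval; colours are comparisons, filled circles passed limma's adjusted p under 0.05 and open circles did not. In KO 2 every gene but HNRNPC lies left of 0, whereas in KO 1 only HNRNPD, HNRNPF and HNRNPL passed.

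The study compared each KO line with WT and used CRISPR Control against WT to set aside changes of the editing procedure. In KO 2 against WT, 9 of 10 members were lower, against 27.9% of all genes, with a median of -0.41 over the members and -0.01 over all genes. With equal library totals 8 were lower, and with quantile normalization 8 were lower and 1, HNRNPC, was higher, with HNRNPU as the call lost in both. In KO 1 against WT, 3 of 10 were lower, HNRNPD, HNRNPF and HNRNPL, against 17.5% of all genes, with medians of -0.15 and 0.00. The KO 1 count was 1 without KO 1 replicate 1, without KO 1 replicate 3 or without WT replicate 1, where HNRNPL was the call left, and 6 when only the KO 1 and WT libraries entered the fit. The HNRNPD call was also lost without WT replicate 2 (-0.27, adjusted p = 0.0648).

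CRISPR Control differed from WT in 5 members. HNRNPA1, HNRNPA2B1, HNRNPF and HNRNPH1 were higher, 4 of 10 against 27.2% of all genes, and HNRNPL was lower, 1 of 10 against 26.3%. Only HNRNPA1 and HNRNPH1 were left when the fit held only these lines. The count was 2 without CRISPR Control replicate 2, 2 without WT replicate 3 and 3 without WT replicate 1. CRISPR Control replicate 2 had the highest counts of all libraries for HNRNPA1, HNRNPA2B1, HNRNPD, HNRNPF, HNRNPH1, HNRNPK and HNRNPU. The members took 0.723% of its reads, against 0.658% and 0.634% in CRISPR Control replicates 1 and 3. HNRNPH1 alone kept its call without each library in turn. HNRNPA1 lost it without CRISPR Control replicate 2 (0.17, adjusted p = 0.077) or WT replicate 3 (0.20, adjusted p = 0.0914), and HNRNPA2B1 without these or WT replicate 1 (0.15 to 0.26, the lowest adjusted p = 0.0548). HNRNPF lost it without CRISPR Control replicate 2, WT replicate 2 or WT replicate 3 (0.16 to 0.17), and HNRNPL without WT replicate 1 (-0.16, adjusted p = 0.0626). HNRNPM passed without CRISPR Control replicate 1 (0.20, adjusted p = 0.0386).

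Set against CRISPR Control, 6 members were lower in KO 1, against 31.3% of all genes, and 9 in KO 2, against 34.4%, with member medians of -0.30 and -0.62. HNRNPH1 had the deepest fall in KO 2 on this baseline, to 57.2% of CRISPR Control (log2 fold change -0.81 ± 0.07 SE, limma adjusted p = 5.89e-09), where HNRNPL was at 61.5%. These comparisons share libraries with those against WT, and CRISPR Control was the highest line for 8 members, all but HNRNPC and HNRNPL. With equal library totals, the median of all genes in KO 2 against CRISPR Control moved to 0.11.

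Both KO lines differed from WT in the same direction, with no call in CRISPR Control, in 1 member, HNRNPD, against 5.18% of all genes that were lower by this rule. HNRNPF and HNRNPL were lower in both KO lines but also differed between CRISPR Control and WT, HNRNPF upwards and HNRNPL downwards. The count was 0 without KO 1 replicate 1 or KO 1 replicate 3, 2 without CRISPR Control replicate 2 or WT replicate 3 (HNRNPD and HNRNPF), and 5 when each comparison was fitted on its own lines. It stayed at 1 with another member in place of HNRNPD in 3 settings, HNRNPL without WT replicate 1 or without the filter on low counts and HNRNPF without WT replicate 2.

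The KO lines also differed from each other. In KO 2 against KO 1, 8 of 10 members were lower, against 20.1% of all genes, from -0.21 for HNRNPF to -0.60 for HNRNPL (limma adjusted p = 3.82e-07). HNRNPA2B1 and HNRNPC did not pass. With equal library totals, where the split of calls over all genes moved from 47.4% to 65.5% higher, HNRNPD, HNRNPF and HNRNPU did not pass and 5 members were left. The count was also 5 without KO 1 replicate 2, again with HNRNPD, HNRNPF and HNRNPU as the calls lost. HNRNPD was further lost without KO 1 replicate 1, KO 2 replicate 1, KO 2 replicate 2 or WT replicate 3 (-0.19 to -0.26), and HNRNPU without KO 1 replicate 1, KO 2 replicate 2 or KO 2 replicate 3 (-0.19 to -0.21). HNRNPA2B1 passed without KO 1 replicate 3 (-0.29, adjusted p = 0.0392) or CRISPR Control replicate 2 (-0.21, adjusted p = 0.0441).

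The other hnRNP genes, 20 from a list of the family, widened the picture. PCBP3 was too low to test, and of the 19 tested, 13 were lower, 2 higher and 4 not called between deficient and competent lines, with a median of -0.37 against 0.00 for all genes. Of all genes, 33% were lower and 32.9% higher in this comparison. In KO 2 against WT, 16 of the 19 were lower, against 27.9% of all genes, and 1 was higher. In KO 1 against WT, 6 of the 19 were lower, against 17.5% of all genes, and 2 were higher. All 6 deficient libraries lay below all 6 competent libraries in 9 of the 19, against 12.4% of all genes. Those with the lowest values were HNRNPAB at -0.84 ± 0.05 SE (limma adjusted p = 1.63e-11), PCBP4 at -0.55 ± 0.06 (adjusted p = 9.14e-08) and PTBP1 at -0.54 ± 0.05 (adjusted p = 6.55e-08). Those with the highest were HNRNPLL at -0.37, HNRNPUL2 at -0.41 and HNRNPR at -0.47. HNRNPAB had 8923 to 9520 in WT, 10163 to 11874 in CRISPR Control, 6297 to 6636 in KO 1 and 4711 to 4915 in KO 2. Its 4 lines did not overlap.

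In the subfamily counts, HNRNPAB was placed in the D group and not in A/B. By subfamily, all 4 A/B genes, all 3 D genes, both R genes and all 3 U genes were lower in the deficient lines. The share over all genes was 33%. Against WT, 0 of 4 A/B, 3 of 3 D, 1 of 2 R and 0 of 3 U genes were lower in KO 1, where 17.5% of all genes were. In KO 2 all of them were lower than WT, against 27.9% of all genes. In CRISPR Control all 4 A/B and both R genes were higher than WT, and the D and U groups each had 1 lower and 1 higher. Over all genes, 26.3% were lower and 27.2% higher there. In the K group, 3 of 4 genes were lower and 0 higher in the deficient lines. Against WT, 1 of the 4 was lower in KO 1 and 4 in KO 2, and CRISPR Control had 1 lower and 1 higher. Between deficient and competent lines, 0 of 2 passed in the C subfamily, HNRNPC and RALY, with RALY at -0.06 (limma adjusted p = 0.343). RALY was lower than WT in KO 2 (-0.34, adjusted p = 0.00115) and in CRISPR Control (-0.24, adjusted p = 0.0141), so its lines fell into a different order from those of HNRNPC. RBMX, the gene of hnRNP G, was at -0.08 (adjusted p = 0.127).

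Relatives moved in opposite directions in the F/H and L groups. HNRNPF, HNRNPH1 and HNRNPH3 were lower in the deficient lines and HNRNPH2, the X-linked relative of HNRNPH1, was higher (0.25 ± 0.06 SE, limma adjusted p = 0.0011). HNRNPH2 was at 2538, 2606 and 2376 in WT, 2399, 2989 and 2476 in CRISPR Control, 3221, 3332 and 3003 in KO 1 and 2840, 2797 and 3043 in KO 2. All deficient libraries exceeded WT, and CRISPR Control replicate 2 reached into their range. PTBP1, the polypyrimidine-tract repressor of many exons, was lower, whereas PTBP3 was higher (0.50 ± 0.07, adjusted p = 2.64e-06). PTBP3 was at 4965, 6428 and 6136 in WT, 4365, 3861 and 3662 in CRISPR Control, 7825, 7884 and 7878 in KO 1 and 6522, 5649 and 5369 in KO 2. KO 2 lay within reach of WT (0.00, adjusted p = 0.971), and the higher value came with the KO 1 level and the low CRISPR Control level.

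Ratios within a library need no size factor, and the pairs below were chosen after their values were seen, so they are given without a test. HNRNPH1 over HNRNPH2 was 3.18 to 3.28 in WT and 3.61 to 4.16 in CRISPR Control, and 2.25 to 2.42 in KO 1 and 1.83 to 2.12 in KO 2. PTBP1 over PTBP3 was 2.98 to 4.02, 4.42 to 5.73, 2 to 2.15 and 1.68 to 2.08 in the same order of lines. HNRNPL over HNRNPC was 0.766 to 0.819, 0.616 to 0.739, 0.587 to 0.617 and 0.399 to 0.446. The ratios of HNRNPH1 and of PTBP1 separated competent from deficient libraries, and for HNRNPL over HNRNPC a CRISPR Control library met the KO 1 range.

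Across the 12 libraries, the 9 members other than HNRNPC had similar courses, and so did many genes outside the family. Pearson's r of log2 values between any pair of these 9 lay between 0.720 and 0.971, with a median of 0.898 over 36 pairs. For the 9 pairs with HNRNPC it lay between -0.027 and 0.314. The points are 4 lines with 3 libraries each and share their size factors, so r is a description of line differences. The genes outside the family whose course was most like the mean of the members were SRSF3 (r = 0.992), a serine- and arginine-rich splicing factor, TARDBP (0.983), the gene of the RNA-binding protein TDP-43, ANP32A (0.977), HMGB2 (0.976) and CBX1 (0.974), over 12 libraries. Among the members, HNRNPA1 had r = 0.986 with the member mean, HNRNPL 0.856 and HNRNPC 0.295, where each member is itself part of that mean. Of the genes tested, 2 had a higher r with that mean than HNRNPA1, 143 a higher r than HNRNPK, 178 than HNRNPF and 990 than HNRNPL, so a likeness of this size is not particular to hnRNP genes.

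RNA of proteins that act on hnRNPs was measured too. TNPO1 and TNPO2, the transportins that carry hnRNP A1 and its relatives into the nucleus, were at -0.13 and 0.08 between deficient and competent lines (limma adjusted p = 0.0691 and 0.194). PRMT1, which methylates arginines of many hnRNPs, was lower (-0.46 ± 0.06 SE, adjusted p = 4.77e-06), and PRMT5, which makes symmetric methylarginine, was at -0.01 (adjusted p = 0.934). In this list 1 of 4 genes was lower and 0 were higher, against 33% and 32.9% of all genes. The pooled values hide differences between lines. PRMT5 was lower than WT in KO 1 (-0.23, adjusted p = 0.0265), KO 2 (-0.43, adjusted p = 0.000105) and CRISPR Control (-0.65, adjusted p = 1.06e-06). TNPO2 was lower than WT in CRISPR Control (-0.42, adjusted p = 0.000103) and did not pass in either KO line. PRMT1 was already lower in CRISPR Control than in WT (-0.31, adjusted p = 0.00895), unlike HNRNPA1 and HNRNPA2B1, which were higher there.

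MYC, a transcription factor known to drive HNRNPA1, HNRNPA2B1 and PTBP1, had 2560 to 2625 in WT, 1843 to 1951 in CRISPR Control, 2823 to 3027 in KO 1 and 1839 to 2040 in KO 2. MYC was higher in KO 1 (0.19, limma adjusted p = 0.0335) and lower in KO 2 (-0.42, adjusted p = 3.64e-05) and CRISPR Control (-0.44, adjusted p = 2.11e-05), each against WT. The summed hnRNP count was highest in CRISPR Control, at 214442 ± 14062, against 195814 ± 7006 for WT, 181756 ± 9210 for KO 1 and 151403 ± 6929 for KO 2 (SD, n = 3). Of the 5 genes of MYC and its partners tested, MAX, the MYC partner, and MNT, a MAX-binding repressor, were higher in the deficient lines, and MYCL was lower. Against WT, MAX passed only in KO 2 (0.33, limma adjusted p = 0.00303) and was at 0.09 in KO 1 (adjusted p = 0.437). MNT and MYCL passed in both KO lines. MAX was at 847 to 1032 in competent and 943 to 1190 in deficient libraries, MNT at 413 to 678 and 760 to 905, MYCL at 73.6 to 122 and 24.0 to 45.4, and MXI1, another MAX-binding repressor, at 228 to 610 and 293 to 500. MYCN was too low to test. The part of MYC and its partners in the hnRNP values was not tested.

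Other measures also differed between the lines. All 10 of 10 genes of a proliferation list were lower in the deficient lines, against 33% of all genes, with a median of -0.75. Against WT, 7 of 10 were lower in KO 1 and 10 of 10 in KO 2, against 17.5% and 27.9% of all genes. In CRISPR Control against WT, 4 of the 10 were lower and 1 higher, where 4 hnRNP members were higher and 1 lower. Of all genes, 26.3% were lower and 27.2% higher in that comparison. MKI67 was at 10298 to 18106 in competent and 6630 to 11840 in deficient libraries, and TOP2A at 24867 to 29564 and 10247 to 25055. The share of reads from the mitochondrial genome was 0.542% to 0.712% in competent and 0.77% to 1.16% in deficient libraries. The part of either in the hnRNP values was not tested.

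Some hnRNP genes start beside another gene. CBX5, the gene of the heterochromatin protein HP1 alpha, starts 60 bases from HNRNPA1. It was lower in the deficient lines (-0.55, limma adjusted p = 6.2e-08) and higher in CRISPR Control than in WT (0.24, adjusted p = 0.0173), the directions of HNRNPA1. In KO 1, CBX5 was lower than WT (-0.26, adjusted p = 0.014), where HNRNPA1 was at -0.07 (adjusted p = 0.547). Of the 22 tested genes within 500 kb of HNRNPA1, 4 were lower and 11 higher in the deficient lines, against 33% and 32.9% of all genes. RMI1, a genome-stability factor, starts 167 bases from HNRNPK and was lower too (-0.38, adjusted p = 0.000291), with KO 1 below WT (-0.36, adjusted p = 0.0174) where HNRNPK was at 0.01. CBX3, the gene of HP1 gamma, starts 367 bases from HNRNPA2B1 and was at -0.17 (adjusted p = 0.0345).

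HNRNPC differed from most genes near it in CRISPR Control. Of the 11 tested genes within 500 kb of it on chromosome 14, 9 were lower and 1 higher in CRISPR Control against WT. Their median was -0.63, and of all genes 26.3% were lower and 27.2% higher. The higher gene was the nearest one tested, LINC00641, which starts 62594 bases away (0.70, limma adjusted p = 0.00413). HNRNPC itself was at 0.02 (95% interval -0.14 to 0.19, adjusted p = 0.823). Within 500 kb of HNRNPH1, 0 of 11 tested genes were lower and 5 higher in CRISPR Control against WT. Their median was 0.42, with HNRNPH1 itself at 0.31. Between deficient and competent lines, 7 of these 11 were lower and 1 higher, with a median of -0.19. Over all genes, 33% were lower and 32.9% higher there. The part of the region in the HNRNPH1 values was not tested.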

How the data were processed

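RNA-seq of 12 libraries was analysed from the table of normalised gene values that the authors deposited, a signal made of read counts divided by DESeq2 size factors. The authors trimmed reads with cutadapt, aligned them to GRCh38 with STAR and counted them per gene, and the strand setting and annotation release are not given in the sources used here. Whole reads were recovered for 100% of values within 0.01 reads. The 4 columns of line means and 1 row with no gene name were not used. GENCODE 44 was used for positions, with 99.1% of gene IDs matched.

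Genes with a mean of at least 10 (15987 genes) were tested on log2(normalised count + 1) by limma 3.58.1 (R 4.3.3), with a shared spread over 4 lines, a variance trend, two-sided p-values and Benjamini-Hochberg adjustment at 0.05. A fold change on this scale hardly differs from the ratio at these levels. edgeR 4.0.16 and DESeq2 1.42.0 were run on the recovered reads as alternatives, 2 of 25 settings that also took in leave-one-out fits, another filter, pseudocounts and scalings. All 10 members were named, along with the other hnRNP genes that had a mean of at least 100, passed the test and did not overlap between deficient and competent libraries (3 highest and 3 lowest), and every tested gene of the import, methylation and MYC lists. Other names, chosen after their values were seen, are HNRNPH2, HNRNPH3, PTBP3, RALY and RBMX. An item of the family list is not reported here. The members and lists were chosen with earlier results of these data known.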

Additional observations from a re-analysis of the deposited data

Results flagged for a closer look

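The change against WT differed between the knockout clones for 8 members, by limma's test of KO 2 against KO 1 with Benjamini-Hochberg adjustment. All 8 were lower in KO 2, as were 20.1% of all genes. KO 2 minus KO 1 was -0.60 on the log2 scale for HNRNPL, -0.38 for HNRNPM, -0.36 for HNRNPH1, -0.31 for HNRNPA1, -0.30 for HNRNPK, -0.25 for HNRNPD, -0.22 for HNRNPU and -0.21 for HNRNPF. With equal library totals the calls of HNRNPD, HNRNPF and HNRNPU were lost, and with quantile normalization these and that of HNRNPA1. Lines of 3 libraries are too small for a test of single libraries that stand apart.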

How the results depend on the processing

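Fits by edgeR, DESeq2, other pseudocounts (0.5 and 10), a minimum mean of 50, pseudogene copies added to their parent gene, and a replicate block each kept the call of all 70 member comparisons; with the replicate block 9 members were lower between deficient and competent lines, as without it. Libraries with the same number did not deviate together (r from -0.129 to 0.160 over 18 pairs), so the numbers do not pair them. Over all genes, edgeR called 10552 and DESeq2 10518 genes between deficient and competent lines, against 10535.

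Without a filter, 1 member passed in KO 1 against WT and 2 in CRISPR Control against WT. With only the lines compared in the fit, 6 passed in KO 1 against WT, 2 in CRISPR Control against WT and 5 in the intersection. With equal library totals 5 passed in KO 2 against KO 1, and with quantile normalization 4, with 2 in the intersection. Without a variance trend, 0 were in the intersection. The difference of HNRNPC between KO 2 and CRISPR Control turned to 0.18 under quantile normalization, and the cause was not tested. Requiring an absolute log2 fold change of 0.5 left 3 members in KO 2 against WT, 1 in KO 2 against KO 1 and 0 in KO 1 against WT, CRISPR Control against WT, KO 1 against CRISPR Control, deficient against competent lines and the intersection, by construction.

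Leaving out 1 library at a time gave 1 to 3 members in KO 1 against WT, 2 to 6 in CRISPR Control against WT, 5 to 9 in KO 2 against KO 1 and 0 to 2 in the intersection. The counts stayed at 9 in KO 2 against WT, 9 in KO 2 against CRISPR Control, 6 in KO 1 against CRISPR Control and 9 between deficient and competent lines. Each library had 155489 reads or more in the members, and each knockout line was 1 clone with 3 libraries.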
